A study of Drosophila melanogaster with 4 samples.

Results

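In Drosophila melanogaster, the chromatin protein L(3)mbt, short for lethal (3) malignant brain tumour, restrains growth of the larval brain, and its loss leads to tumours there. The DNA it binds was mapped by ChIP-seq, in which chromatin is pulled down with an antibody and sequenced. Of the 2655 binding regions listed on the large autosomal arms at the stricter error rate, 250 are described here. These are the isolated weaker peaks: regions on 2L, 2R, 3L or 3R, the 4 large autosomal arms, with a peak score below 50 and with no centre of another listed region within 30000 bp on either side. They made up 11.6% (exact 95% interval 10.3 to 13.0%) of the 2152 autosomal peaks below that score. The other 1902, which had a neighbour within 30000 bp, are the main comparison. A further 101 autosomal peaks were isolated and scored 50 or more.

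The labels describe 4 libraries from a mixture of larval brain and imaginal discs (wing, haltere and the third leg), taken at the third instar from animals raised at 25 °C. The L(3)mbt ChIP group held 1 library of the strain w1118 and 1 of Canton S, made with an antibody raised in guinea pig and eluted with glycine. The input group held 1 library of each of these strains, without an antibody. No treatment was given, and because brain and discs were mixed, a peak cannot be assigned to either tissue. The deposited lists give 1 value per peak for a group as a whole. There is thus no spread between strains, no test across samples, and the sequencing depth is unknown. Every interval below covers counting error only and takes peaks or calls as independent of each other, which makes it too narrow where they gather.

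MBT domains, which give the protein family its name, bind histone tails with low degrees of lysine methylation. L(3)mbt is known from repressive complexes that keep germline and other genes silent in somatic tissue. The study's title also places it at insulator elements, which are DNA sites where insulator proteins bind and separate neighbouring stretches of the genome. A peak in such a profile is a stretch where fragments pulled down with the antibody pile up. No reference genome of the release used for the lists was at hand, so neither the sequences nor the genes under the regions are given.

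The members were chosen by the score and by the spacing of the L(3)mbt peaks, so all values drawn from the ChIP lists describe them and are not tested. The score is the authors' signal value per region of 400 bp, read here as a mean per base. Isolated peaks scored from 7.51 to 49.86, with a median of 13.9 (95% interval 12.9 to 15.3) and the central 50% between 10.4 and 22.3. The other peaks below 50 scored from 7.5025 to 49.885, with a median of 13.3 (12.9 to 13.7) and the central 50% between 9.50 and 20.6. The median of the isolated peaks was 0.681 higher, with a counting interval of that difference from -0.507 to 2.12. With peaks below 25 alone, it was 0.924 higher (0.0038 to 1.79). Both differences were small beside the spread of the scores within each class, and the ranges overlapped almost completely.

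**Figure D1:**
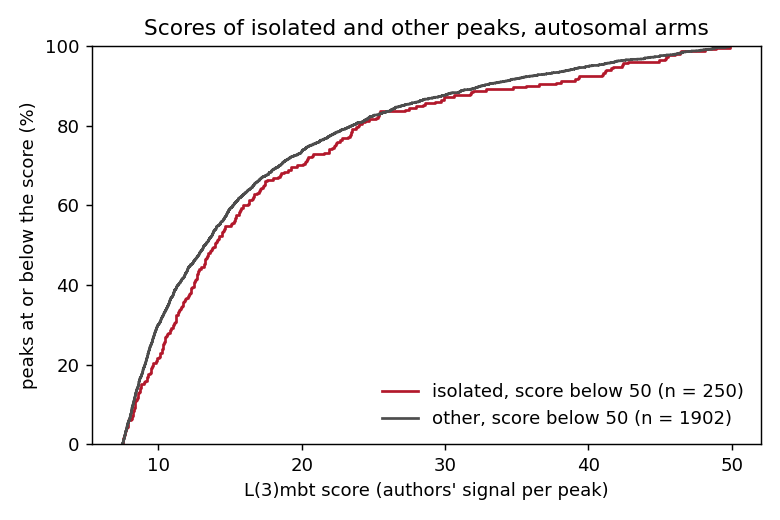
Cumulative share of peaks (vertical axis, percent) at or below each L(3)mbt score (horizontal axis, the authors' signal per peak) for the 250 isolated and the 1902 other autosomal peaks below 50. The curves run close together, with medians of 13.9 and 13.3.

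The share of isolated peaks differed by score class. Of the 625 autosomal peaks from 7.5 to below 10, 54 were isolated, or 8.64% (exact interval 6.56 to 11.1%). The share was 13.0% (10.5 to 15.9%) from 10 to 15, 13.1% (10.3 to 16.4%) from 15 to 25, 10.1% (6.28 to 15.2%) from 25 to 35 and 14.3% (9.55 to 20.2%) from 35 to 50. These 5 classes showed no steady order, and all their intervals overlapped. Beyond the bound of 50 the share was higher, at 17.0% (12.9 to 21.9%) from 50 to 100 and 24.2% (18.6 to 30.5%) from 100 upwards. The interval from 50 to 100 overlaps those of all classes from 10 to 50, so no step at the bound is shown. The interval from 100 upwards overlaps those from 35 to 50 and from 50 to 100. Among the members, 21.6% scored below 10, 33.2% from 10 to 15, 26.8% from 15 to 25, and 46 members scored 25 or more.

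**Figure D2:**
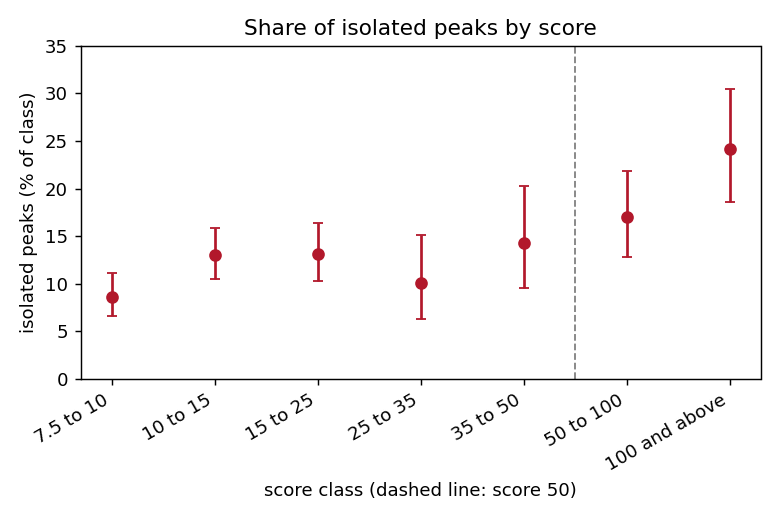
Share of autosomal peaks with no other peak centre within 30 kb (vertical axis, percent, with exact 95% intervals) by score class (horizontal axis). The share was 8.64% in the lowest class and 24.2% in the highest, which lies beyond the bound of 50.

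The matching calls of the unfiltered ChIP list, in which regions are 270 bp wide and the authors' signal is called the height, also differed little between the classes. The tallest call over an isolated peak had a median height of 31.3 (29.3 to 34.7), and that over another peak below 50 had 29.7 (28.6 to 30.8). The difference was 1.54 (-0.721 to 5.13), and with peaks below a score of 25 alone it was 2.43 (0.014 to 4.63). A single unfiltered call lay over 82.4% of the isolated peaks and over 82.5% of the others. Over all peaks of each class, the centre of the tallest call was off the centre of the region by a median of 5 and 8 bp. Among the isolated peaks, score and height ranked alike (Spearman's rho 0.93 across 250 peaks, both read from the ChIP lists). Score was not ordered by distance to the nearest peak (rho 0.035).

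The strongest member lay on 3R from 13846970 to 13847369 and scored 49.86, with a height of 85.0 and the nearest filtered peak 102 kb away. It was followed by 2R from 7106556 to 7106955, scoring 48.9, whose height of 137.3 was greater. The next, on 3R from 9659241 to 9659640, scored 48.1 and had free stretches of 134 kb and 131 kb to either side. The remaining ones of the 5 highest lay on 3R from 26427454 to 26427853 and from 22087181 to 22087580, with scores of 46.5 and 46.4. Just past the bound, the lowest isolated peaks of 50 and above were all on 2L, from 11948469, 7702485 and 14851675, with scores of 50.29, 50.35 and 50.56. Each of the 5 strongest members had between 2 and 6 weak ChIP calls within 30 kb.

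The 5 weakest members scored from 7.51 to 7.62, just above the lowest score of the list. On 2L they lay from 10311953 to 10312352, from 1077676 to 1078075 and from 21899232 to 21899631, with scores of 7.51, 7.515 and 7.53. The remaining pair, on 3L from 19440055 to 19440454 and on 2R from 4010307 to 4010706, scored 7.57 and 7.615. Their heights ran from 11.2 to 22.3. The number of weak ChIP calls within 30 kb ranged from 2 to 23 among these 5, so peaks of nearly equal score lay in unlike surroundings.

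The free stretches around the members were often far longer than the rule asked. The nearest filtered peak was a median of 43.6 kb away (range 30.1 to 313.5 kb), and it was further than 50 kb for 104 members and further than 100 kb for 22. The other peaks below 50 had a median of 6222 bp. The stretch from the neighbour on one side to that on the other had a median length of 132.8 kb around members, up to 933.1 kb. Past 30 kb the surroundings soon resembled those of the others. At 30 to 50 kb, filtered peaks were at 27.3 per Mb around members and 33.6 per Mb around the others. At 50 to 100 kb the densities were 28.8 and 29.7 per Mb, close to the mean of 27.5 per Mb over the arms. In these sums a peak counts once for each member it lies near.

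Of the 5 most remote members, 4 lay less than 1 Mb from the centromere-side end of their arm and the fifth 2.27 Mb from it. On 3L, the regions from 23707854 to 23708253 and from 24021340 to 24021739, with scores of 8.30 and 12.6, were each other's nearest filtered peaks at 313.5 kb. On 2L, the region from 22690874 to 22691273 scored 11.2, with 219.2 kb to its nearest filtered peak. The region on 3L from 22260358 to 22260757 scored 12.8, with 188.7 kb, and that on 2R from 711709 to 712108 scored 11.1, with 152.6 kb. At the other end, the members that just met the distance lay on 3L from 16734751 and from 16704632, 30119 bp from each other, and from 15547325, with 30229 bp. The peaks that just missed it lay on 3R from 11233886, on 2L from 15005501 and on 2R from 17269835, with 29858, 29755 and 29748 bp. Their scores of 23.3, 12.2 and 10.7 fell within the range of the members.

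The nearest filtered peak was itself a member for 75 of the 250 (30%, exact interval 24.4 to 36.1%). The same held for 20.8% of the isolated peaks of 50 and above, and the exact intervals of these shares overlap. For the other peaks below 50 the rule excludes it. Whether members gather along the arms was not tested. The nearest filtered peak was a peak of 50 or more for 47 members (18.8%, 14.1 to 24.2%), where such peaks made up 18.9% of the autosomal list. It was so for 14.7% (13.2 to 16.4%) of the other peaks below 50. In the order along the arms, 126 members had no other member as a direct neighbour in the list, 36 runs held 2 in a row and 13 held 3. The 2 longest runs are named because of their values. A run of 7 opened 2R at its centromere side, from 18237 to 1492603, with scores from 9.86 to 17.4. A run of 6 lay in the middle of 3L, from 12118089 to 12461173, with scores from 9.04 to 22.1 and free stretches of 47 to 78 kb on either side of each. The members of the run on 2R had 4 to 15 input peaks within 30 kb, and those on 3L had 11 to 33.

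The longer ChIP list, made at an error rate of 3%, adds 1003 regions on these arms with scores from 5.5025 to 7.5. Such marginal peaks lay within 30 kb of 105 of the 250 members (42.0%, exact interval 35.8 to 48.4%). They did so for 1151 of the other peaks below 50 (60.5%, 58.3 to 62.7%) and for 32 of the isolated peaks of 50 and above (31.7%, 22.8 to 41.7%). The median distance to the nearest marginal peak was 42654 bp for members (33850 to 48378) and 19886 bp for the others (17911 to 21673). Thus 145 members (58.0%) were alone also in the longer list, as far as 30 kb. Within 10 kb a marginal peak lay beside 22.8% (17.8 to 28.5%) of the members and 33.3% (31.2 to 35.4%) of the others. In density, taken as for the weak calls below, the mean over these arms was 10.4 marginal peaks per Mb. Members had 12.5 per Mb (9.42 to 16.2) from 1000 to 10000 bp and 9.20 (6.71 to 12.3) from 20000 to 30000 bp. These intervals include that mean, which is taken over all bases, those near filtered centres included. It is thus not matched to the class densities, which leave such bases out. The others had 16.2 and 13.0 per Mb. By the rule, the others have another filtered peak within 30 kb, and its part in these differences was not tested. By score, a marginal peak lay within 30 kb of 51.9% (37.8 to 65.7%) of the 54 members below 10, 39.8% (29.2 to 51.1%) of those from 10 to 15, 35.8% (24.5 to 48.5%) of those from 15 to 25 and 43.5% (28.9 to 58.9%) of those from 25 to 50. These intervals overlap and the shares follow no steady order.

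**Figure D3:**
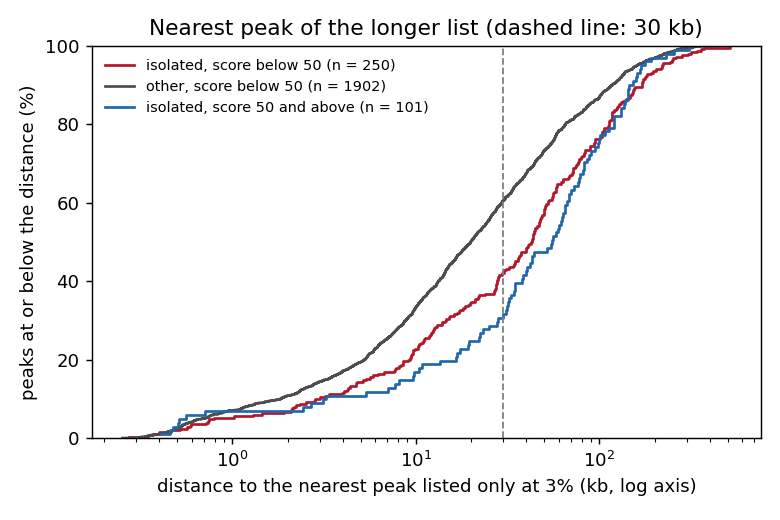
Cumulative share of peaks (vertical axis, percent) by distance to the nearest peak listed only at the 3% rate (horizontal axis, kb, log scale), for isolated and other peaks below 50 and isolated peaks of 50 and above. At 30 kb, marked by the dashed line, the shares are 42.0%, 60.5% and 31.7%.

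Weak calls of the unfiltered ChIP list, here those that overlap no filtered peak, were sparser around members than around the other peaks. The term sets no bound on height, and it includes calls under marginal peaks. Their median height was 6.44, but the tallest within 30 kb reached 79.7 around members and 478.6 around the others. Densities were taken over all bases at a given distance from the centres of a class, each base once, without bases within 1000 bp of any filtered centre (200 bp for the band from 200 to 1000 bp). From 1 to 10 kb, members had 594 weak calls on 4.49 Mb, or 132.3 per Mb (121.8 to 143.3). The other peaks had 192.2 per Mb (186.4 to 198.2), a ratio of 0.688 (0.630 to 0.750). The windows of the other peaks often reach a second filtered peak, which those of the members by the rule do not. With bases within 10 kb of a second filtered peak left out, a setting chosen after the data were seen, the density around the others was 166.5 per Mb and the ratio 0.795 (0.724 to 0.871). The part of neighbouring peaks in the remaining difference was not tested. The mean over the 4 arms was 121.4 per Mb, taken over all bases with those near filtered centres included. A mean without those bases was not computed.

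The density of weak calls fell away with distance in both classes. Around members it was 151.3 per Mb (134.7 to 169.4) at 1 to 5 kb, 117.0 (104.0 to 131.3) at 5 to 10 kb, 90.4 (82.2 to 99.2) at 10 to 20 kb and 85.1 (77.1 to 93.6) at 20 to 30 kb. Around the others it was 230.0, 182.0, 159.3 and 147.2 per Mb. Members thus passed from above to below the mean over all bases of the arms, while the others stayed above it at each of these distances. Closest in, at 200 to 1000 bp, members had 425.9 per Mb (364.2 to 494.9) and the others 588.8 (560.9 to 617.8). Calls touching the filtered region itself are not counted there, so the innermost part of that band is empty by construction.

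Isolated peaks of 50 and above met the same bound of 30 kb as the members and so give a comparison at similar isolation. Spacing past that bound was not matched. Their nearest filtered peak was a median of 49556 bp away (39314 to 55452), against 43599 bp for members (40236 to 48454). Weak calls from 1 to 10 kb were at 88.8 per Mb (75.6 to 103.7) around them, and the density around members was 1.49 times this (1.25 to 1.78). At 1 to 5 kb the densities were 151.3 and 104.0 per Mb, at 5 to 10 kb 117.0 and 76.6, and at 20 to 30 kb 85.1 and 75.7, where the interval of the ratio (0.93 to 1.36) includes 1. At 200 to 1000 bp they did not differ detectably (ratio 1.03, 0.770 to 1.38). Input peaks were at a similar density around both from 1 to 10 kb, with 444.4 and 453.0 per Mb (ratio 0.981, 0.904 to 1.07). Score was used to form these classes, so the contrast is a description.

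**Figure D4:**
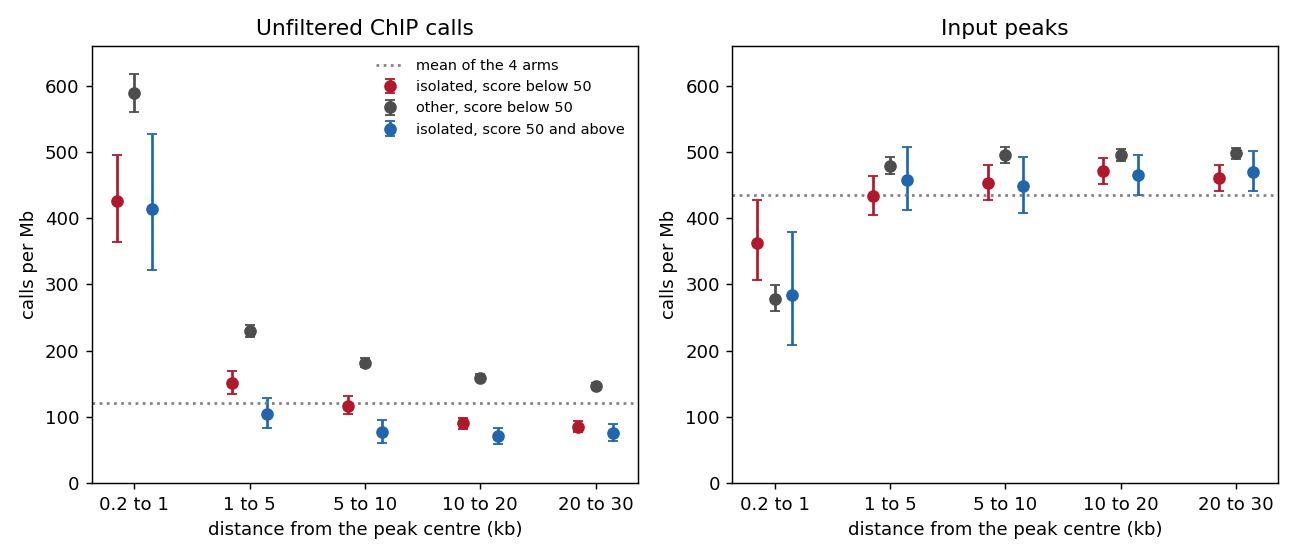
Unfiltered ChIP calls that overlap no filtered peak (left) and input peaks (right) per Mb (vertical axes, with exact Poisson 95% intervals) by distance from the peak centre (horizontal axes, kb), for the 3 classes of peak. Dotted lines give the means over all bases of the 4 arms, 121.4 and 434.3 per Mb, with bases near filtered centres included. Weak ChIP calls around isolated peaks below 50 lie under those around the others at each distance, and input peaks lie under them from 1 kb outwards.

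Counted per peak, members had a median of 5 weak ChIP calls within 30 kb on either side, from 0 to 29. The median was 12 for the other peaks below 50 and 4 for the isolated peaks of 50 and above. No weak call lay there for 13 members (5.20%, 2.80 to 8.73%), among them 4 in the 1 Mb at the centromere-side end of an arm. The same held for 7 of the 1902 others (0.368%, 0.148 to 0.757%) and for 9 of the 101 isolated peaks of 50 and above (8.91%, 4.16 to 16.2%). The member with the most was on 3R from 1480510 to 1480909, with 29 weak calls, a score of 10.1 and filtered peaks 30.6 and 30.5 kb away. Those on 2L from 8370357 to 8370756 and from 10311953 to 10312352 had 27 and 23. On 2L from 10200860 to 10201259 and on 3R from 19588802 to 19589201 there were 22 each. The scores of these 5 ran from 7.51 to 17.3, and the tallest weak call around them reached a height of 22.4. Across members, the number of weak calls did not follow the score (rho -0.013).

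The input list was not used by the rule that chose the members, although the scores may have been made with input. Around the members, input peaks were at 444.4 per Mb (425.2 to 464.4) from 1 to 10 kb, near the mean of 434.3 per Mb over all bases of the arms. Around the other peaks below 50 they were at 494.8 per Mb (485.4 to 504.3), a ratio of 0.898 (0.856 to 0.942). The ratio was 0.95 (0.908 to 0.994) at 10 to 20 kb and 0.924 (0.883 to 0.967) at 20 to 30 kb. The lower density of weak ChIP calls around members thus went together with a lower density of input peaks from 1 kb outwards. Counted per peak within 30 kb, however, members had a median of 27 input peaks (26 to 28) and the others 27 (27 to 28). The medians of weak ChIP calls there were 5 and 12. The part of input coverage in the lower ChIP density was not tested. The interval of the ChIP ratio lay below that of the input ratio from 1 to 10 kb (0.630 to 0.750 against 0.856 to 0.942). It did so at 10 to 20 kb as well (0.513 to 0.626 against 0.908 to 0.994). With bases within 10 kb of a second filtered peak left out, the setting chosen later, the input ratio was 0.872 (0.829 to 0.918). Its interval there overlapped that of the ChIP ratio of 0.795. Nearer than 1 kb the order was the reverse, with 363.2 per Mb (306.5 to 427.4) at 200 to 1000 bp from members and 278.5 (259.4 to 298.7) from the others. The ratio was 1.30 (1.08 to 1.56), and both densities were below the mean of 434.3 per Mb over the arms. Other ChIP calls were fewer at that distance around members, as given above, and the nearest input centre was at least 132 bp away from each member and 124 bp from each of the others.

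An input peak overlapped 21 members by at least 1 bp (8.40%, 5.27 to 12.6%) and 129 of the others (6.78%, 5.69 to 8.01%). The difference of 1.62 percentage points had an interval from -1.47 to 5.85. An input centre lay within 500 bp of 19.6% (14.9 to 25.1%) of the members and of 13.9% (12.4 to 15.6%) of the others, a difference of 5.67 points (0.933 to 11.2). The 21 members with an overlap had a median score of 11.7 (8.77 to 14.1), and the 229 without one had 14.2 (13.2 to 15.6). Weak ChIP calls from 1 to 10 kb were at 82.0 per Mb (55.7 to 116.4) around the former and 136.9 (125.8 to 148.7) around the latter. The sources used here do not say whether input was subtracted from the scores or was itself scored against ChIP, so how far these values are set by the making of the lists cannot be told apart from the signal.

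Members in longer free stretches had fewer calls of both kinds around them. Weak ChIP calls from 1 to 10 kb were at 140.2 per Mb (124.1 to 157.7) around the 109 members whose nearest filtered peak was 30 to 40 kb away and at 96.0 (67.9 to 131.7) around the 22 at over 100 kb. Input peaks were at 471.5 (441.6 to 502.8) and 325.8 per Mb (272.0 to 387.1). The intervals of the input densities do not overlap, while those of the ChIP densities do. Of these 22 members, 5 lay in the 1 Mb at the centromere-side end of an arm. The median scores, 14.0 (12.3 to 15.4) and 13.9 (11.2 to 21.5), did not differ detectably.

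Along the chromosomes, each arm held members. 3L and 3R carried 74 each, 2L carried 52 and 2R carried 50. Of the peaks below 50, 14.2% (exact interval 11.3 to 17.5%) were isolated on 3L, 11.9% (9.46 to 14.7%) on 3R, 11.02% (8.34 to 14.2%) on 2L and 9.31% (6.99 to 12.1%) on 2R. All these intervals overlap. In density, members ranged from 2.26 per Mb on 2L to 3.02 per Mb on 3L, where the span ran from the first base to the end of the last listed peak. 2R had the most filtered peaks for its length, 30.1 per Mb, and the smallest isolated share. The median score of members ran from 13.3 on 3L to 14.9 on 2R.

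At the centromere-side ends of the arms as listed, isolated peaks were common among few peaks. By the rule, a larger share is isolated where filtered peaks are sparse, so this share is no separate result on placement. The 1 Mb at the centromere side of the arms held 38 peaks below 50 in all, 14 of them isolated (36.8%, 21.8 to 54.0%), of which 6 lay on 2R. In the 1 Mb at the telomere side, 13 of 115 were isolated (11.3%, 6.16 to 18.6%), and over the rest of the arms 223 of 1999 (11.2%, 9.81 to 12.6%). Thus 5.60% (3.10 to 9.22%) of the members and 1.26% (0.810 to 1.87%) of the other peaks below 50 lay in the centromere-side stretches, which make up 4.14% of the span. Members were at 3.5 per Mb there, from 14 peaks, and at 2.52 in the rest of the arms. Filtered peaks were at 10.8 per Mb there against 27.9 in the rest, weak ChIP calls at 54.5 against 123.8 and input peaks at 252.5 against 439.8. All the lists were sparse together, and the part of coverage in the sparse peaks of this stretch was not tested. With the terminal 1 Mb of both ends left out, the ratio of weak ChIP calls was 0.712 and that of input peaks 0.922.

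With each arm cut into 10 equal stretches, counted from the centromere side and pooled over the arms, members were at 1.86 to 4.14 per Mb. The highest density was in stretch 6, near the middle of the arms, with 40 members at 4.14 per Mb (2.96 to 5.64) against a mean of 2.59. There 18.1% (13.3 to 23.8%) of the peaks below 50 were isolated. Filtered peaks as a whole, at 27.4 per Mb, and input peaks, at 441.5 per Mb, were near their means in that stretch. The 40 came from every arm, with 13 on 3R, 12 on 3L, 9 on 2L and 6 on 2R, and 3 belonged to the run of 6 on 3L. The stretch was picked as the highest of 10, so its interval understates the uncertainty. The stretch at the centromere-side end had a similar isolated share, 17.4% (11.6 to 24.6%), with 18.2 filtered peaks and 357.3 input peaks per Mb.

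**Figure D5:**
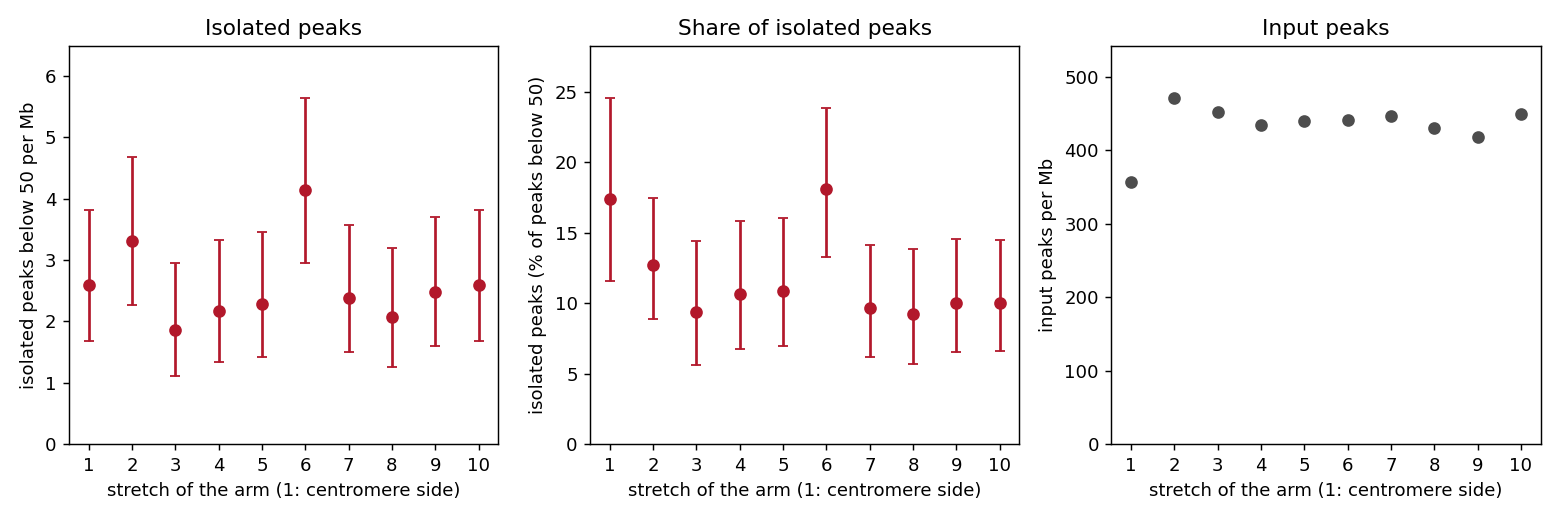
Isolated peaks below 50 per Mb (left), their share of all peaks below 50 in percent (middle) and input peaks per Mb (right) in 10 equal stretches of the 4 arms, pooled (horizontal axes, 1 at the centromere side), with exact 95% intervals on the left and in the middle. The density of members is highest in stretch 6, at 4.14 per Mb, where input peaks are at 441.5 per Mb.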

How the data were processed

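The 4 deposited lists were used. The authors' signal per peak, in regions of 400 bp in the filtered lists (score) and of 270 bp in the unfiltered ChIP and input lists (height), was used as deposited. Neither its scaling to library size nor the genome build is given in the sources used here. Score times width was whole for 100% of peaks, within 0.01. Bowtie is named, without a version, per the submitters' processing notes. The lists' own names give the pypeak caller and error rates of 0.5% and 3%. Chromosome names are those of release 5. The number of columns of other samples was 0.

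Starts were shifted to count from 1. Members were found by score, arm and distance between centres. Shares have exact binomial intervals, densities exact Poisson intervals, ratios exact conditional intervals and medians order-statistic intervals, all at 95%. Intervals of differences combine those of both groups by the square-and-add method, with Wilson intervals for shares. Functions were tested on simulated data. The regions named are the 5 members highest or lowest in score, the 5 most remote, the 5 with most weak calls and the 3 on each side of both bounds. Members, classes and lists were chosen with earlier results of these data known. Alternatives were other distances and score bounds, the longer list, each arm or the arm ends left out, other counting of windows, height minimums and overlap rules. Computations ran in Python 3.11.15 with scipy 1.17.1, numpy 2.4.6 and pandas 2.3.3, and plots in matplotlib 3.10.9.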

Additional observations from a re-analysis of the deposited data

How the results depend on the processing

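Of 80 repeats over 8 results, 69 stayed within the interval of the reported value. With isolation set at 20000 or 50000 bp, the isolated share was 19.4% or 4.83%, a change that follows by construction. The share with a marginal peak within 30 kb was then 49.8% or 33.7%. The input ratio also moved, to 0.954 (0.917 to 0.992) or 0.850 (0.789 to 0.914). With neighbours counted in the longer list, the isolated share was 6.74% and the ratio of weak ChIP calls 0.477. The share with a marginal peak is 0 there by construction and was not computed. Weak calls include those under marginal peaks, which that setting keeps away from members by construction. With calls that overlap a peak of the longer list left out and members unchanged, the ratio was 0.682 (0.622 to 0.748). The ratio of weak ChIP calls was 0.617 with overlapping windows counted each time and 0.795 with bases near a second filtered peak left out. It stayed below 1 in its 13 alternatives. The intervals of the differences in median score and height, which include 0, did not include it with peaks below 25 alone (0.924 and 2.43); they did in the other alternatives. Within 2 Mb of an arm end lay 18.4% of the members. The difference in overlap with input peaks, whose interval includes 0, was -1.26 points at 50000 bp and -0.198 without 3R. No paired analysis was possible because the lists hold no value per strain, and leaving out a replicate was not possible for the same reason. The unknown depth limits how many weak neighbours of a member could be listed.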
